A study of Macaca mulatta with 10 samples.

Results

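A set of 8 genes typical of platelets and of megakaryocytes, the bone marrow cells that shed them, was followed through RNA sequencing libraries of sorted Tr1 cells from rhesus macaques (Macaca mulatta). The genes were ITGB3, ITGA2B, PF4, PPBP, GP1BA, GP9, TUBB1 and TREML1. They were taken by symbol, but with earlier results of these data known, and all 8 had a row among the 26484 genes of the count table. ITGB3 led the choice because the study lists it among genes raised in Cohort C, a list drawn from these same libraries, so its direction here is not independent evidence. The question was whether ITGB3 counts went with other platelet RNA in the same libraries.

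The monkeys had received an islet allograft from a one DRB-matched donor under transient immunosuppression, given to both cohorts, with an anti-CD40 antibody, rapamycin, soluble TNF receptor (etanercept) and anti-IL-6 receptor antibody (tocilizumab). Cohort C also received infusions of apoptotic donor leukocytes (ADLs), and Cohort B did not. Libraries of 5 monkeys of each cohort were analysed, 1 per monkey, and the study's Cohort B held further monkeys that are not analysed here. Every test below thus takes the monkey as its unit. The edgeR p-values also rest on a fitted count model, whose spread is doubtful for genes with many zeros. For ITGB3 the edgeR quasi-likelihood p was 0.00797, while the exact permutation p over the monkeys was 0.444. With ITGB3 counts in 2 monkeys only, both of Cohort C, that permutation test could give no smaller p. According to the labels, blood mononuclear cells were collected at rejection in Cohort B and at the planned end on day 365 in Cohort C. For some monkeys the follow-up in the published account differs from these labels. The cells had been frozen, thawed and rested overnight before CD4+CD49b+LAG-3+ cells were sorted. ADL treatment, time of collection and graft rejection as labelled therefore cannot be told apart. No ages are given for the animals in the labels.

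Platelets carry no nucleus but keep megakaryocyte RNA. ITGB3 (integrin β3, CD61) pairs with ITGA2B (integrin αIIb, CD41) to form the fibrinogen receptor that links platelets in a clot, and pairs with ITGAV in the vitronectin receptor of many other cells. GP1BA and GP9 are subunits of the receptor for von Willebrand factor, PF4 and PPBP are chemokines stored in α-granules, TUBB1 is the β-tubulin of the platelet marginal band, and TREML1 is a granule receptor of activated platelets. CD49b, the integrin α2 chain used in the sort, is encoded by ITGA2 and is part of a collagen receptor that platelets also carry. Platelets are known to adhere to blood leukocytes.

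Depth differed widely. Library totals ran from 6076 to 1392157 counts in Cohort B and from 66485 to 5895609 in Cohort C. The 11 sort and T cell genes on a fixed list (among them CD3D, CD3E, CD4, LAG3 and ITGA2) were all detected in monkeys 13EP12, 13EP5 and 15CP1, 10 of them in 13EP8, and between 0 and 5 in the other 6 libraries, with none in 14HP31. In 14HP33 the trimmed mean (TMM) factor used for scaling was 0.0727, beside 0.820 to 4.17 in the other 9. Those 6 libraries held 0 to 405 counts on the T cell list, beside 1686 to 8107 in the other 4, so a transcript at a low level could be missed in them.

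ITGB3 was detected in 2 of 10 libraries, and nearly all of its counts came from one. Monkey 13EP5 of Cohort C had 373 ITGB3 counts, 15CP1 of the same cohort had 4, and the other 3 Cohort C monkeys and all 5 of Cohort B had 0. ITGB3 was thus high in 1 Cohort C monkey, at the edge of detection in another, and the remaining 3 Cohort C monkeys could not be separated from Cohort B. The library of 13EP5 held 98.9% of ITGB3 counts and 24.6% of all counts. In bulk libraries such as these, a small number of cells rich in a transcript and a larger number with little of it cannot be told apart.

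The partner of ITGB3 on platelets had the same pattern. ITGA2B had 166 counts in 13EP5, 4 in 15CP1 and 0 in the other 8 libraries. Both chains of the fibrinogen receptor were therefore found in the same 2 monkeys and nowhere else.

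Of the von Willebrand factor receptor, GP1BA had 15 counts in 13EP5 and 0 in the other 9 libraries. GP9 had 0 counts in every library, so it entered no test. At the depth of 13EP5 a count of 0 allows a level of up to 0.898 CPM (counts per library total, scaled to 1e6), using a floor of 3 counts, and this limit covers counting error only.

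The 2 chemokine genes were found in 3 libraries each. PPBP had 285 counts in 13EP5 and 8 in 15CP1, but also 26 in Cohort B monkey 13EP12, and 0 in the other 7. PF4 had 36 counts in 13EP5, 1 in 15CP1 and 2 in Cohort B monkey 13EP8, with 0 in the other 7. PF4 has a near-identical copy, PF4V1, which had 10 counts in 13EP5 and 0 elsewhere, so the division of reads between the 2 is uncertain.

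TUBB1 had 398 counts in 13EP5, 11 in 15CP1 and 6 in Cohort B monkey 13EP8, and 0 in the other 7 libraries. TREML1 had 37 counts in 13EP5, 1 in 13EP12 and 0 in the other 8. The library of 13EP5 was the highest for each of the 7 detected genes, both in counts and in CPM, and the cohorts overlapped at 0 for all of them.

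**Figure D1:**
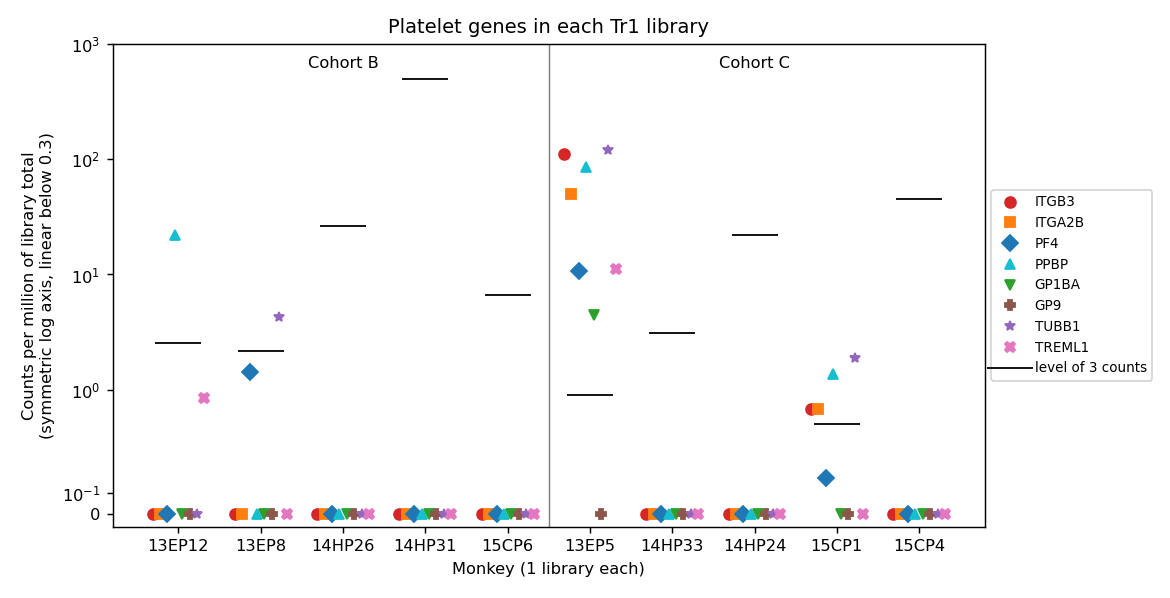
Level of the 8 platelet genes in each of the 10 Tr1 libraries (1 monkey each, Cohort B left and Cohort C right), in CPM on a symmetric log axis that is linear below 0.3; black bars mark the level of 3 counts at each library's depth. Of the 8 genes, 7 stand above the bar in 13EP5, 4 in 15CP1 and 1 each in 13EP12 and 13EP8, and the other 6 libraries are at 0 for all 8.

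Summed over the 8 genes, 13EP5 had 1310 counts or 392 CPM (95% exact binomial interval 371 to 414, counting error only). The sum was 27 counts or 22.7 CPM in 13EP12 (14.9 to 33), 8 counts or 5.75 CPM in 13EP8 (2.48 to 11.3) and 28 counts or 4.75 CPM in 15CP1 (3.16 to 6.86). The ranges of 15CP1 and 13EP8 overlap, whereas that of 13EP12 lies above both and that of 13EP5 above all. Relative to the summed counts of the T cell list, 13EP5 had 292 platelet gene counts per 1000, beside 14.5 in 13EP12, 4.75 in 13EP8 and 3.45 in 15CP1. Of 1373 counts of these genes in the series, 95.4% were in 13EP5 (Wilson interval 94.2 to 96.4%), and 63 were elsewhere.

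Judged by library total alone, most other libraries were deep enough to show ITGB3 at the level of 13EP5. At the CPM of 13EP5, ITGB3 would have given 658 counts in 15CP1, the deepest library, which had 4. It would have given 133 counts in 13EP12 and 155 in 13EP8, which had 0. In 15CP6, where 50.8 counts would have been found at that level, and in 14HP24 and 14HP26, where the values are 15.3 and 12.7, ITGB3 also had 0. The value in 14HP33 was 108 by library total but 8.16 after TMM scaling, and in 14HP31, at 0.678 counts, a level as high as that of 13EP5 could not have been seen. In 15CP4 the value was 7.42. Library totals overstate what some of these libraries could show. The housekeeping gene EEF1A1 was at 5949 CPM in 13EP5 but had 0 counts in 14HP33 and 14HP26. CD3D, at 100 CPM in 13EP5, had 0 counts in 14HP24 and 15CP4. A count of 0 for ITGB3 in these libraries therefore does not show a lower level.

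The share of a gene's counts that came from 13EP5 was compared between gene groups. It was 98.9% for ITGB3, 97.6% for ITGA2B, 92.3% for PF4, 89.3% for PPBP, 100% for GP1BA, 95.9% for TUBB1 and 97.4% for TREML1, with a median of 97.4%. The median over all 14168 genes tested was 23.9%, over 11 sort and T cell genes 26.1%, and over 8 monocyte markers 1.29%. Of the 7, 5 reached the 10 counts needed for testing only through 13EP5, and PPBP and TUBB1 would have reached it without. The high shares of those 5 are thus partly fixed by that minimum. The genes and lists were also chosen with earlier results of these data known, so the contrast between groups is a description only. More than 90% of the counts lay in 13EP5 for 6 of the 7 platelet genes and for 222 of all genes tested, or 1.57%. More than 90% lay in some single library for 1757 genes, or 12.4%, so that a transcript held by 1 library was not rare in these data.

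**Figure D2:**
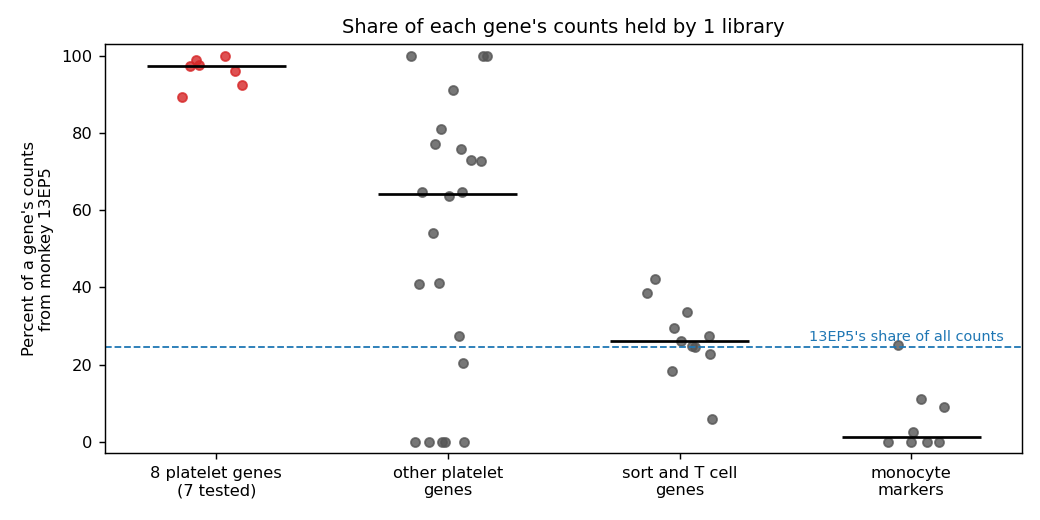
Percent of each gene's counts that came from monkey 13EP5, for the 7 tested platelet genes, 22 other platelet and megakaryocyte genes, 11 sort and T cell genes and 8 monocyte markers; each point is a gene, the black bar is the group's median and the dashed line is the 24.6% of all counts held by 13EP5. The 7 genes lie between 89.3% and 100%, the other platelet genes spread from 0 to 100% around a median of 64.1%, and the T cell genes lie around the dashed line.

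The 2 Cohort C libraries with ITGB3 counts, 13EP5 and 15CP1, had nearly the same level of T cell list genes, at 1344 and 1375 CPM, a ratio of 0.977 (95% counting interval 0.942 to 1.01). ITGB3 was 165-fold higher in CPM in 13EP5 than in 15CP1 (63.7 to 607). The ratio was 73.2 for ITGA2B (28.1 to 272), 62.9 for PPBP (31.5 to 147) and 63.8 for TUBB1 (35.3 to 129). For PF4 it was 63.5 (10.7 to 2578), and for all 8 genes summed 82.5 (56.8 to 125). The interval of ITGB3 overlaps that of each of the other 4 genes. These ratios compare 2 libraries, not 2 conditions.

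ITGAV, the partner of β3 outside platelets, did not have this pattern. It had 109 counts in 13EP5, 88 in 15CP1, 35 in 13EP12 and 19 in 13EP8, with 0 elsewhere. Its ratio between 13EP5 and 15CP1 was 2.19 (1.64 to 2.93), an interval that lies below that of ITGB3. ITGA2, the CD49b gene, had 37 counts in 15CP1, 25 in 13EP12, 4 in 13EP5 and 2 in 13EP8, and the ratio of 13EP5 to 15CP1 was 0.191 (0.0494 to 0.531). The library richest in ITGB3 and ITGA2B thus held ITGA2, the gene whose protein was used in the sort, at 1.20 CPM, beside 6.28 CPM in 15CP1. The part of platelet RNA in the ITGB3 difference between the cohorts was not tested.

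**Figure D3:**
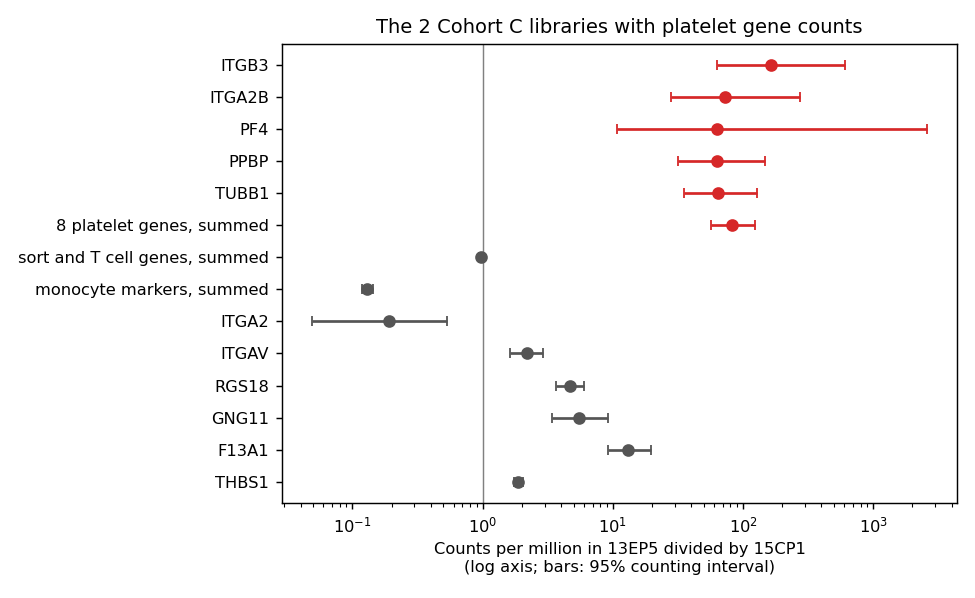
Ratio of CPM in 13EP5 to those in 15CP1, on a log axis, for platelet genes with a count in both libraries and their sum (red) and for other genes or summed lists (grey); bars are 95% counting intervals. The platelet genes lie between 62.9 and 165, the T cell list lies at 0.977 and ITGA2 and the monocyte markers lie below 1.

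Within a library, the make-up of the platelet gene counts was compared. ITGB3 made up 28.5% of the counts of the 8 genes in 13EP5 (Wilson interval 26.1 to 31%) and 14.3% of those in 15CP1 (5.70 to 31.5%), so the 2 shares did not differ beyond counting error. TUBB1 made up 30.4% and 39.3%, and PPBP 21.8% and 28.6%. In the Cohort B libraries the make-up was different or too sparse to read. ITGB3 was at 0 of 27 counts in 13EP12, where 26 were PPBP, and at 0 of 8 in 13EP8, where 6 were TUBB1 and 2 were PF4. The upper Wilson limit for ITGB3 was 12.5% in 13EP12 and 32.4% in 13EP8, so the share in 13EP12 lay below that of 13EP5 while that in 13EP8 could not be told from it.

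Levels per transcript length can be compared between genes only in FPKM (fragment counts scaled by transcript length and library size), and only within a library. In 13EP5, PPBP had 187 FPKM, TUBB1 173, ITGB3 114, ITGA2B 70.3, TREML1 68.5, PF4 27.7 and GP1BA 8.31, and GP9 was listed at 0. ITGB3 was at 1.62 times the level of ITGA2B and at 3.8 times that of ITGAV, which had 30.0 FPKM. For comparison, CD3E had 957 FPKM, CD4 299 and ITGA2 1.74 in this library, and the median of the 9721 genes with a value above 0 was 66.5. ITGB3 ranked 3606 among them. Of 16 pairs of a platelet gene and a library in which it had counts, 6 were listed at an FPKM of 0, ITGA2B and PPBP in 15CP1 among them, so low values there cannot be used.

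Cohort C was then compared with Cohort B across all genes with edgeR's quasi-likelihood test. The call rule was a difference of 1.5-fold or more together with an unadjusted p under 0.01, after the cut used in the study. In all, 152 of 14168 genes were called higher in Cohort C by this rule (1.07%), and 911 in either direction (6.43%). Among the 7 platelet genes tested 1 was called, ITGB3. The call was lost in 11 of 17 other settings, among them edgeR's exact test and leaving out any one monkey of Cohort B. At a Benjamini-Hochberg adjusted p under 0.05 edgeR called 0 genes (0%), with 2923 (20.6%) at an unadjusted p under 0.05, and 3 of the 7 platelet genes were among the latter.

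The fitted log2 fold change of ITGB3 was 7.81 (standard error 2.94), with an unadjusted p of 0.00797 and an adjusted p of 0.141 (edgeR's quasi-likelihood test). ITGA2B, with the same library pattern, was at 6.71 (standard error 2.64) and an unadjusted p of 0.0110 just outside the cut. GP1BA was at 3.77 (standard error 1.77), TUBB1 at 4.26 (2.44), TREML1 at 2.97 (1.87), PF4 at 2.35 (1.80) and PPBP at 1.82 (2.12). Adjusted p-values in the same edgeR fit were 0.141 for ITGA2B, 0.195 for GP1BA, 0.328 for TUBB1, 0.422 for TREML1, 0.615 for PF4 and 0.914 for PPBP. The median over all genes tested was 0.16. A positive value was favoured, though not fixed, by the count minimum for the 5 genes that reached it only through 13EP5. The common sign of the 7 is therefore not independent evidence. Since Cohort B had no ITGB3 count, the fitted value depends on the prior count and is no bound.

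Pooled over each cohort's libraries, ITGB3 was at least 38.1-fold higher in Cohort C, with Cohort B set to 3 counts in all. By the same floor ITGA2B was at least 17.2-fold and GP1BA at least 1.52-fold higher. The pooled ratio was 20.7 for TUBB1 (95% counting interval 9.42 to 56.7), 5.61 for PF4 (1.45 to 48.1) and 3.42 for PPBP (2.29 to 5.32), and 11.2 for TREML1 (1.89 to 455), which had 1 count in Cohort B. These intervals cover counting error and not the spread between monkeys.

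Each of these differences rested on 13EP5. Without it, ITGB3 and ITGA2B had 4 counts each in Cohort C, under the floor for Cohort B in CPM, and no fold can be given. PPBP then had a pooled ratio of 0.138 (0.0538 to 0.313) and TUBB1 of 0.819 (0.278 to 2.70). Only PPBP and TUBB1 kept enough counts for a fit without 13EP5, with log2 fold changes of -2.86 and -0.49 (adjusted p = 0.915 and 0.9999, edgeR's quasi-likelihood test), and 0 of the 7 genes were called. The number of genes called without 13EP5 was 76 of 13630.

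**Figure D4:**
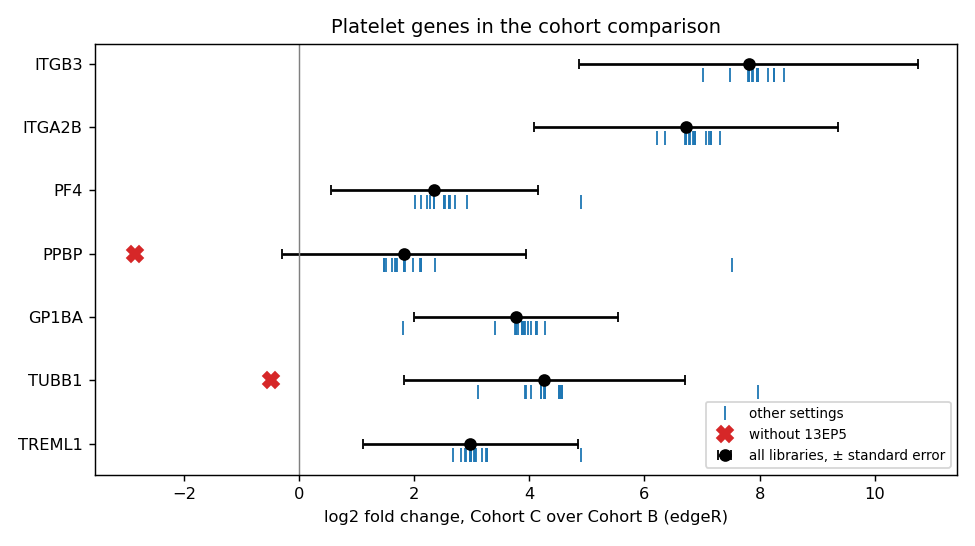
Fitted log2 fold change of each tested platelet gene, Cohort C over Cohort B (edgeR), with 5 monkeys per cohort; black points are the fit on all 10 libraries with standard errors, blue ticks the other settings tried and red crosses the fit without monkey 13EP5. The black points lie between 1.82 and 7.81, and the 2 genes that could be fitted without 13EP5 lie at -2.86 for PPBP and -0.49 for TUBB1; the other 5 had under 10 counts left.

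The cohorts were also compared with an exact two-sided permutation test over the monkeys. On log2(CPM + 1), with CPM scaled by the TMM factors, ITGB3 was 1.55 ± 3.00 in Cohort C (SD, n = 5) and 0 in all 5 monkeys of Cohort B, with an exact permutation p of 0.444. The smallest value that 5 against 5 monkeys can give is 0.00794, but only where enough monkeys are above 0. ITGB3 was above 0 in 2 monkeys, both of Cohort C, and 0.444 is then the smallest p possible. For ITGB3 the permutation test therefore could not have found a difference. The exact permutation p was 0.444 for ITGA2B, 0.722 for PF4, PPBP and TUBB1, and 1 for GP1BA and TREML1. These genes too were above 0 in so few monkeys that a small p was out of reach. On log2(FPKM + 1) the difference of ITGB3 was 1.40, with an adjusted p of 0.992 (limma). That fit called 0 of 10307 genes at an adjusted p under 0.05 and had 29 at an unadjusted p under 0.05. It is limited because the FPKM were not on a common scale across libraries. CD3D was at 100 CPM in 13EP5 and 124 in 15CP1, but at 692 and 114 FPKM. DESeq2, which withholds a p where 1 library has an extreme Cook's distance, gave none for 6 of the 7 platelet genes, and the largest distance was that of 13EP5 for all 7. It gave none for 12.4% of all genes.

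In the labels 3 libraries carry an index mark (S and a number), 15CP6 in Cohort B and 14HP33 and 15CP1 in Cohort C. Among libraries with the mark ITGB3 had 0 counts in the 1 of Cohort B and 0 and 4 in the 2 of Cohort C. Among those without it, the 4 of Cohort B had 0 and the 3 of Cohort C had 373, 0 and 0. With the mark as a covariate, ITGB3 had a log2 fold change of 7.97 and was not called (adjusted p = 0.392, edgeR's quasi-likelihood test).

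Other genes of platelets and megakaryocytes were read from a list of 36 symbols present in the table, of which 6 had no count in any library and 22 were tested. More than 3 counts were found for 17 of the 36 in 13EP5 and for 16 in 15CP1. The 36 genes summed to 812 CPM in 13EP5, 417 in 13EP8, 398 in 13EP12, 299 in 15CP1 and 211 in 15CP6. The rest of the libraries ran from 0 to 114 CPM. Of the first 5 sums, THBS1 alone gave 400, 279, 222, 213 and 4.39 CPM. By the same cut 1 of the 22 was called higher in Cohort C, RGS18, and 1 lower, SPARC. Of all 14168 genes tested, 152 were called higher and 759 lower. Of the 22, 12 had a positive and 10 a negative log2 fold change, with a median of 0.50. The TMM-scaled CPM was highest in 13EP5 for 10 of the 22 (45.5%), beside 18.6% of all genes tested. Without 13EP5, 19 could be tested, 6 positive and 13 negative with a median of -2.74 beside -0.43 over all genes. Of the 19, 0 were called, beside 76 of all 13630 genes tested.

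Some genes of this list lay mostly in 13EP5. SELP, the P-selectin of α-granules, had 29 counts in 13EP5 and 0 elsewhere. SDPR, a caveolar protein gene abundant in platelets, had 164 in 13EP5, 15 in 13EP12 and 1 in 15CP1. NRGN, a calmodulin-binding protein gene whose RNA is abundant in platelets, had 249 in 13EP5, 52 in 13EP12, 4 in 15CP1 and 2 in 13EP8. More than 90% of the counts came from 13EP5 for 4 of the 22, SELP, SDPR, PF4V1 and PDE5A.

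Others were also found in 15CP1. RGS18, a regulator of G protein signalling of blood cells, had 247 counts in 13EP5, 93 in 15CP1 and 0 in the other 8 libraries. By the pooled floor it was at least 34.4-fold higher in Cohort C with 13EP5 and at least 13.9-fold without it. The latter bound rests on 15CP1 alone, and both cover counting error and not the spread between monkeys. GNG11, a G protein γ subunit gene, had 75 and 24, and ESAM, an adhesion molecule gene of platelets and endothelium, 47 and 14, both with 0 elsewhere. F13A1, the A subunit of coagulation factor XIII, which monocytes also express, had 247 in 13EP5, 33 in 15CP1 and 59 in Cohort B monkey 15CP6. Its CPM was 73.9 in 13EP5 and higher in 15CP6, at 130. The ratio of 13EP5 to 15CP1 in CPM was 4.69 for RGS18, 5.51 for GNG11 and 13.2 for F13A1, with upper limits of 6.01, 9.13 and 19.6, all below the lower limit of the summed 8 genes, 56.8. THBS1, a thrombospondin of platelets and monocytes, had 1337 and 1253 counts in these libraries, 265 in 13EP12 and 388 in 13EP8. PRKAR2B, a regulatory subunit gene of protein kinase A, had 72 counts in 13EP5, 47 in 15CP1 and 14 in 13EP8.

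For several genes 13EP5 was not the highest library. ALOX12, the platelet 12-lipoxygenase, had 12 counts in 13EP5 and 32 in 15CP1. PTGS1, the cyclooxygenase that makes thromboxane in platelets, had 22 in 13EP5, 24 in 15CP1, 50 in 13EP12 and 12 in 13EP8, and its CPM was 6.58 in 13EP5 and 42.0 in 13EP12. ELOVL7, a fatty acid elongase gene, had 82 in 13EP5 and 45 in 13EP12, at 24.5 and 37.8 CPM. MYL9, a myosin light chain gene, had 27 in 13EP5, 14 in 15CP1 and 25 in 13EP8, at 8.08 CPM in 13EP5 and 18.0 in 13EP8. CLU, the α-granule protein clusterin, had 53 in 13EP5, 8 in 15CP1, 11 in 13EP8 and 10 in 14HP26, at 15.9 CPM in 13EP5 and 87.8 in 14HP26. LTBP1, a binding protein of latent TGF-β, had 28 in 13EP5, 2 in 15CP1 and 14 in 15CP6, at 8.38 CPM in 13EP5 and 30.7 in 15CP6. F2RL3, a thrombin receptor gene, had 11 counts in 15CP1 and 0 elsewhere.

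Other genes of the list were at or near 0 in 13EP5, where the 8 were high, and some of these were at 0 in every library. The receptor subunit genes GP1BB and GP6 had 0 counts in 13EP5, as in every other library. GP5 had 1 count in 13EP5, its only count in the series. The megakaryocyte transcription factor NFE2 had 0 counts in 13EP5 and 184 in 15CP1, beside 47 in 13EP12 and 55 in 13EP8, and GATA1 had 0 and 2. SPARC had 64 counts in 13EP8 and 0 in the other 9 libraries, so its call also rested on 1 monkey.

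Markers of other blood cells were summed by list. The 8 monocyte markers summed to 143 CPM in 13EP5, with 4 of 8 detected, beside 1101 CPM in 15CP1, 1189 in 13EP12 and 1139 in 13EP8. S100A8, S100A9, FCN1 and MS4A7 were at 0 in 13EP5, while CD14 had 36 counts, LYZ 125, CSF1R 134 and VCAN 184. CSF1R was at 40.1 CPM in 13EP5, above 13EP12 (36.1) and 13EP8 (25.9) and below 15CP1 (48.2) and 15CP6 (83.4). The ranges of the monocyte sum were 0 to 1189 CPM in Cohort B and 0 to 1101 in Cohort C. All 7 erythroid and all 5 endothelial markers were at 0 in 13EP5. B cell markers summed to 39.5 CPM and CD8 and NK cell markers to 32.3 CPM in 13EP5, within the ranges of the other libraries, 0 to 87.8 and 0 to 217.

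The genes most like ITGB3 were ranked by Pearson's r of log2(CPM + 1), with TMM scaling, over the 10 libraries, as a description, among 12176 genes outside the 8 with more than 3 counts in at least 2 libraries. ITGA2B had an r of 0.9997, and 1 gene lay above it. GP1BA (r = 0.992) had 11 genes above it, TREML1 (0.958) 72, TUBB1 (0.935) 113, PF4 (0.929) 123 and PPBP (0.795) 579. GP1BA, TREML1 and PF4 did not themselves have more than 3 counts in 2 libraries. Other genes found in 13EP5 alone were left out of the ranking by that minimum, so these numbers hold for this ranking only. ITGA2 (r = 0.0932) had 83.2% of the genes above it and ITGAV (0.534) 20.2%. With 8 libraries at 0, r reflects little more than a high value in 13EP5 and a low one in 15CP1. Of these genes, the 5 with the highest r were PPM1J, RGS7, GFRA1, SRC and FAM174B, with r from 0.9975 to 0.99998. PPM1J, a protein phosphatase gene, had 300 counts in 13EP5 and 4 in 15CP1, close to the 373 and 4 of ITGB3, and SRC, a tyrosine kinase gene, had 121 and 5. All 5 had 0 counts in the other 8 libraries.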

How the data were processed

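RNA of sorted Tr1 cells was read as 10 libraries, 1 per monkey. The authors prepared stranded libraries (Clontech Pico Mammalian), aligned macaque reads to human hg38 with HISAT2 2.0.2 and deposited gene counts, made with subread according to the table's name (options not given in the sources used here), and FPKM from Cuffdiff 2.2.1. Macaque reads that differ from the human sequence may be lost, more for some genes than others. All sample columns were used.

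Counts were tested in edgeR 4.0.16 (R 4.3.3; TMM, quasi-likelihood, at least 10 counts summed over libraries), and log2(FPKM + 1) in limma 3.58.1 (mean FPKM of at least 1). DESeq2 1.42.0 was an alternative. The study ran edgeR in another program. Recovery of simulated fold changes was checked first, but a pass was required only at a dispersion (count spread) far below the 4.74 fitted here. That check does not show that changes are recovered in data as variable as these. Intervals cover counting error only and not the spread between monkeys. Reads carried no molecular identifiers, so copies of 1 molecule could not be told apart and the intervals may be too narrow. The text names the 8 genes, the 5 genes most like ITGB3 and, from the fixed lists, genes with over 3 counts in a library with over 3 ITGB3 counts (13EP5 or 15CP1), which the rule allowed but did not require; list genes under that level in both (SPARC, GATA1, GP5, GP1BB and GP6) were added after their values were seen. The genes and lists were chosen with earlier results of these data known. All 8 symbols matched RefSeq's macaque table, and no coordinates are given since its assembly is not the one used.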

Additional observations from a re-analysis of the deposited data

Results flagged for a closer look

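In groups of 5, a monkey was marked where its log2(CPM + 1) stood apart from the other 4 by more than 0.71 of the group's range (Dixon's test), which chance gives in about 1 in 20 groups. Of 15 groups examined, 11 were marked. With the other 4 monkeys at 0 any single value is marked, which holds for the 4 marks in Cohort B and for GP1BA and TREML1 in Cohort C, so the number of marks cannot be set against that rate.

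In Cohort C all 7 marks fell on monkey 13EP5. Its log2(CPM + 1), with TMM scaling, was 6.87 for ITGB3, 5.72 for ITGA2B, 3.61 for PF4, 6.49 for PPBP, 2.50 for GP1BA, 6.96 for TUBB1 and 3.64 for TREML1. In Cohort B, monkey 13EP8 was marked for PF4 (1.34) and TUBB1 (2.48), and monkey 13EP12 for PPBP (4.55) and TREML1 (0.90).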

How the results depend on the processing

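In 17 other settings ITGB3 kept a positive log2 fold change, from 7.01 to 8.43, and was called in 6, with adjusted p from 0.0717 to 1 (edgeR and variants). It lost its call with edgeR's exact test (7.81), every gene with at least 1 count tested (7.80), the index mark as covariate (7.97) and libraries of at least 100000 counts (8.43). With 1 monkey left out it ranged from 7.48 to 8.26, and without 13EP5 it fell under the count minimum. The count of all genes called was 911, but 88 with the exact test, 22 with DESeq2, 1525 with RLE size factors (33.8% higher, beside 16.7% in TMM scaling), 10 with filterByExpr (3414 genes), 98 with the mark, 326 with deep libraries and 76 to 698 with 1 monkey left out. TMM set the median of all genes at 0.16, RLE at -0.03 and library size at -0.10. Platelet genes called were 1, but 2 with RLE (ITGA2B at 7.07), 1 with library size alone, 0 with the exact test, at least 1 count, the mark or deep libraries, 0 with DESeq2, which gave a p for 1 of 7, and 0 with filterByExpr, which left none to test, and 0 to 2 with 1 monkey left out (2 without 14HP24 or 15CP4, 1 without 14HP33, 0 without any other). The fit with the replicate number as a block gave 0 genes and 0 platelet genes, with ITGB3 at 7.01; the numbers count different monkeys, same-numbered libraries had correlations from -0.43 to 0.38, and none correlated best with its own number, so they do not pair. In a setting chosen after seeing the data (at least 1 count, 13EP5 left out), 0 platelet genes were called, ITGB3 was at 2.10, and PF4 (-1.22), PPBP (-2.86), TUBB1 (-0.47) and TREML1 (-1.62) changed sign. With 1 monkey left out, PPBP ranged from -2.86 to 7.53 and TUBB1 from -0.49 to 7.98. The share of ITGB3 in 13EP5 was 17.6% by FPKM. The cause was not tested beyond the library left out. FPKM results kept their side of the threshold. The exact permutation p of ITGB3 did so as well, but its zeros left it no room to cross. Depth limits every statement on the 6 libraries at 0.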
